A study of Mus musculus with 12 samples.

Results

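The genes described here encode PRDM16 and the factors that work with it or against it in brown and beige fat, and the data are the ATAC-seq peaks assigned to them in fat that lacks BAF60a. The members are Prdm16, Mecom, Zfp516, Zfp423, Ehmt1, Irf4, Ctbp1, Ctbp2, Zbtb16 and Nrip1, 10 genes in all. A peak was taken when the gene symbol that the authors had assigned to it was one of these, which gave 111 of the 58558 peaks of brown fat and 88 of the 39558 peaks of inguinal fat. ATAC-seq uses a transposase that cuts open DNA, so that the reads in a peak measure how accessible its chromatin is.

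BAF60a, encoded by Smarcd1, is a subunit of the SWI/SNF chromatin remodelling complexes. All mice were of the C57BL/6 strain and carried floxed BAF60a alleles. The flox group had no Cre, and the AKO group carried Adiponectin-Cre, which deletes the gene in adipocytes and leaves it intact in the vascular, immune and stromal cells of the same tissue. Brown adipose tissue (BAT) came from 3 mice per genotype, each a sample of its own, and the temperature and age for these mice are not given in the sources used here. Inguinal white adipose tissue (iWAT) came from adult mice acclimated to cold and was pooled by genotype, and the 3 samples per genotype are aliquots of that pool, so the p-values of iWAT measure technical spread only. Whole tissue was used, and fewer cells of a type and less open chromatin per cell cannot be told apart. Samples are given in the order of replicates 1, 2 and 3 throughout.

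PRDM16 is a zinc finger protein of the PR domain family that holds brown fat precursors to the brown fate and supports the thermogenic genes of mature cells. It binds DNA mostly through partners such as PPARγ and C/EBPβ, and it represses white fat genes by recruiting the corepressors CtBP1 and CtBP2 and the histone methyltransferase EHMT1. MECOM (EVI1) is its close relative, ZFP516 and IRF4 activate the thermogenic genes, ZBTB16 (PLZF) is induced by cold, while ZFP423 and NRIP1 (RIP140) restrain the thermogenic program.

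The sequences of 6 peaks that the results below turn on are shown first, read from the forward strand of the GRCm38 (mm10) genome. Capitals mark matches to a consensus of EBF (CCCNNGGG) or C/EBP (TTGCNNAA), searched on both strands without mismatch, and the whole peak is shown where it has no more than 300 bases, its central 300 bases otherwise. The intronic Zbtb16 peak, lower without overlap in AKO samples of both tissues, holds a C/EBP match in the window chr9:48745702-48746001.
Zbtb16 intron: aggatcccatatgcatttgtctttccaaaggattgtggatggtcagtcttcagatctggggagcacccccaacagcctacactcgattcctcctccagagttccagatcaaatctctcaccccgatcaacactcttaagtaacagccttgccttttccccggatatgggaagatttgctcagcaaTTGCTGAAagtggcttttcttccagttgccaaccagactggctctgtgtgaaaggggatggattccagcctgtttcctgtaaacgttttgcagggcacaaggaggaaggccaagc
The upstream Nrip1 peak shares that pattern, and its window chr16:76507333-76507632 holds no match.
Nrip1 upstream: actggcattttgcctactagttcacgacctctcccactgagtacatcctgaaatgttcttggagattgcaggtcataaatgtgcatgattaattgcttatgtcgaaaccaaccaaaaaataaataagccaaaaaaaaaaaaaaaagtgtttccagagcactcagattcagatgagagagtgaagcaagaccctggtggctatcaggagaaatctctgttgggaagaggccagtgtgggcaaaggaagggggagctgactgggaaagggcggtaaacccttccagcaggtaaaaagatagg
The Mecom and Zfp423 peaks below are those with the smallest p-value of their gene in BAT. Their windows, chr3:30019422-30019721 and chr8:87918304-87918603, each hold an EBF match, and that of Zfp423 also holds a C/EBP match.
Mecom intron: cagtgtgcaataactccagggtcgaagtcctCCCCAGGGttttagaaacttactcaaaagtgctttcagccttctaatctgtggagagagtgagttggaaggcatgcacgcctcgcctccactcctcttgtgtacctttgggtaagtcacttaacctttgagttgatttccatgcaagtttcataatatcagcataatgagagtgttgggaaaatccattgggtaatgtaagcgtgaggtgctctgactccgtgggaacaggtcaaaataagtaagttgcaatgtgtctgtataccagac
Zfp423 intron: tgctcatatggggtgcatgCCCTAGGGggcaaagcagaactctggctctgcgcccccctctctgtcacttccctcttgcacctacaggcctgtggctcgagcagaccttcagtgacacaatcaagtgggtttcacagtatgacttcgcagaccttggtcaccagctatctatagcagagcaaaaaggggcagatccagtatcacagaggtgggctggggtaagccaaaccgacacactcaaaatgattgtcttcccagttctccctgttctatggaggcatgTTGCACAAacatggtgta
The peaks of Irf4 and Prdm16 had the smallest p-values in iWAT, among assigned peaks and among peaks inside the genes. They are shown whole, as chr13:30721514-30721722 and chr4:154603589-154603844, and hold no match to these motifs.
Irf4 upstream: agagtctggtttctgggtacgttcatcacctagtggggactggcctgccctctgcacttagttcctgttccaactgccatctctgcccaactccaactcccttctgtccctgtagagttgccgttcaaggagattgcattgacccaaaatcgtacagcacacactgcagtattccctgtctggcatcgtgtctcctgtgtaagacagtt
Prdm16 intron: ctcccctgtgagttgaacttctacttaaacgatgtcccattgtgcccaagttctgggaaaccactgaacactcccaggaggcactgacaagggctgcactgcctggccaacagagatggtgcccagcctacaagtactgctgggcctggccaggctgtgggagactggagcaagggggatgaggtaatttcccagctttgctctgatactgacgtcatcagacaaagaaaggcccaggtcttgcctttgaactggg

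The deposited values, here called normalized reads, are reads per peak scaled by each sample's size factor. Reads in peaks ranged from 6336670 to 27500738 per BAT sample and from 4066720 to 6691161 per iWAT sample. An intronic Smarcd1 peak, chr15:99704113-99704521, checked the genotypes of BAT, with 136 to 201 normalized reads in flox and 23.7 to 57.9 in AKO samples, whereas the iWAT table has only its promoter peak, which checks nothing, at 188 to 249 and 229 to 233. The adipocyte markers Adipoq, Plin1, Fabp4, Cidec, Lep and Lpl (6 of 6) had peaks in both tissues. Their summed peaks in BAT were 15752 to 17882 in flox and 11795 to 15861 in AKO samples. Of their 40 BAT peaks, 9 lay lower and 3 higher without overlap, against 8.84% and 8.77% of all BAT peaks. In iWAT the sums were 2518 to 3363 in flox and 2716 to 2996 in AKO samples. The part of these markers in the results below was not tested. Of 6 immune markers, 2 had peaks in BAT and 3 in iWAT, and Cd3e, Cd68 and Cd79a had none in either. The summed peaks of the immune markers lay between 184 and 234 normalized reads in AKO and between 244 and 281 in flox samples of iWAT, without overlap. This sum rests on 4 peaks, of which 2 lay lower and 1 higher without overlap, against 10.3% and 10.6% of all iWAT peaks. The endothelial sum of iWAT (3 of 5 markers with a peak) also lay lower, at 527 to 603 against 655 to 694, and the skeletal muscle sum (2 of 5) at 740.0 to 775 against 780 to 971. The stromal sum of iWAT (5 of 5) overlapped, at 1338 to 1542 in AKO and 1399 to 1476 in flox samples. In BAT the stromal, endothelial and skeletal muscle sums all overlapped. Of the 12 stromal BAT peaks, 1 lay lower and 4 higher without overlap, against 8.84% and 8.77% of all BAT peaks. The part of all these markers in the results below was not tested. The fit of BAT had principal component 1 (PC1) as a covariate. It held 55.6% of the variance and ran from −98.2 in flox replicate 1, the deepest sample, to 112 in AKO replicate 2, the shallowest. The scores were −98.2, −41.8 and 14.6 in flox and −0.617, 112 and 13.5 in AKO samples. PC1 thus partly goes with genotype, and the fit with PC1 may take up part of a genotype difference.

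Accessibility at these genes was examined to see whether the loss of BAF60a reaches the regulators of the thermogenic program themselves. In BAT, no member peak passed the test. limma on log2(normalized reads + 1), with Benjamini-Hochberg adjustment over all peaks and a threshold of 0.1, called 0 of the 111 peaks, and 0% of all peaks. Even the intronic Smarcd1 peak was not called by limma (log2 fold change −2.98 with PC1, adjusted p = 0.269). A limma count of 0 in BAT thus does not show that the peaks are unchanged. DESeq2, edgeR and limma-trend with the same covariate called that Smarcd1 peak lower, and they too called 0 of the 111 member peaks. Over all peaks, DESeq2 called 0.298% lower and 0.11% higher among those it adjusted, edgeR 0.114% and 0.029%, and limma-trend 0.0751% and 0.0154%. At an unadjusted limma p under 0.05 there were 4 member peaks lower and 4 higher, against 5.59% and 3.46% of all peaks. In 7 peaks every AKO sample lay below every flox sample and in 6 every one lay above, against 8.84% and 8.77% of all peaks, so neither count exceeds the background.

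The direction over the whole set of BAT peaks depended on the covariate. With PC1, 51 of the 111 log2 fold changes were below 0, with a median of 0.060, and without it 69 were below 0, with a median of −0.095. Over all peaks the share below 0 was 49.1% with PC1 and 51.7% without. Fold changes of BAT are therefore given both ways.

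In iWAT, limma again called 0 of the 88 peaks, and 0% of all peaks. The alternative tests did call a few. DESeq2 called 1 peak lower, edgeR 3 lower and 2 higher, and limma-trend 2 lower and 2 higher. Among all iWAT peaks, these tools called 0.63%, 2.52% and 2% lower and 0.546%, 2.15% and 1.64% higher, in the same order. At an unadjusted limma p under 0.05 there were 8 lower and 8 higher, against 7.42% and 7.61% of all peaks. Groups did not overlap in 9 peaks that lay lower and 12 that lay higher, against 10.3% and 10.6%, close to the background. Of the 88 log2 fold changes, 38 were below 0, with a median of 0.015, where 50.1% of all peaks were below 0.

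**Figure D1:**
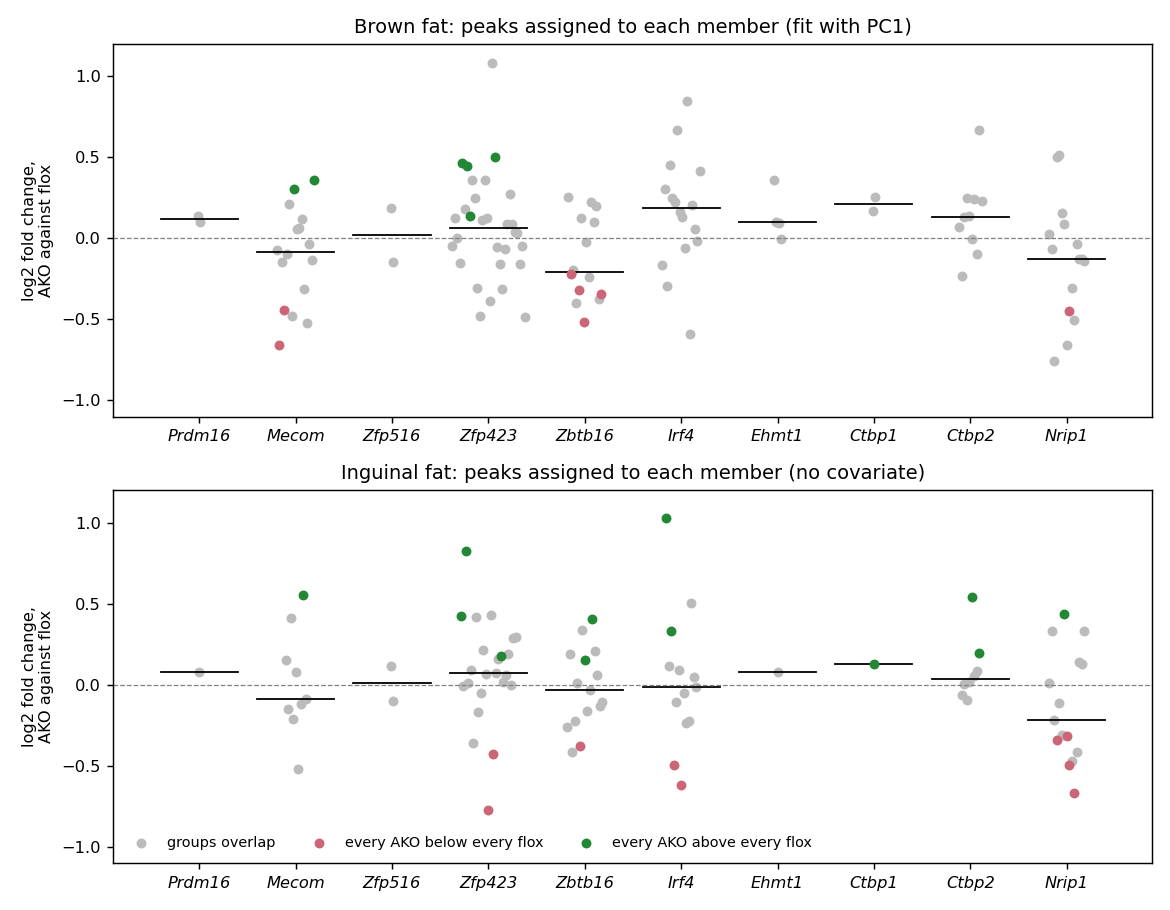
Log2 fold change (vertical axis, AKO against flox, limma) of each of the 111 BAT peaks (top, fit with PC1) and 88 iWAT peaks (bottom, no covariate), by assigned gene. Each point is a peak, ordered by position within its gene, the black line is the gene's median, and colour marks the peaks whose groups do not overlap (7 lower and 6 higher in BAT, 9 lower and 12 higher in iWAT).

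Prdm16 was represented by few peaks, and those inside the gene carried the symbols of other genes. In BAT 2 peaks and in iWAT 1 carried its symbol, each upstream of the start site. The nearest in BAT, chr4:154638568-154639452, had 486, 289 and 353 in flox and 340.2, 311 and 383 in AKO samples. The groups overlapped, with a log2 fold change of 0.14 with PC1 (SE 0.253, adjusted p = 0.889) and −0.097 without. The other BAT peak, chr4:154649061-154649704, had 583, 556 and 466 in flox and 514, 361 and 513 in AKO samples, and it too overlapped (log2 fold change 0.10 with PC1, SE 0.178, adjusted p = 0.884, and −0.22 without). The iWAT peak at that place, chr4:154649077-154649662, held 120.5, 102 and 128 in flox and 122, 143 and 107 in AKO samples, a log2 fold change of 0.079 (SE 0.163, adjusted p = 0.857) with overlapping groups.

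Within the Prdm16 gene itself, which spans chr4:154316125-154636873, lay 33 BAT peaks assigned to the long noncoding RNA 5930403L14Rik (26) or to Arhgef16 (7). These, and other peaks named beside each gene's start site peak and its peak of smallest p, were chosen after their values were seen. The peak over the Prdm16 start site, chr4:154635768-154637289, had 1028, 816 and 769.7 in flox and 718, 527 and 692 in AKO samples. Every AKO sample lay below every flox sample, and the log2 fold change was −0.11 with PC1 (SE 0.174, adjusted p = 0.867) and −0.43 without. The same held for the most accessible intronic peak in flox samples, chr4:154580852-154581831, with 1483, 1029 and 982 in flox and 963, 512 and 870.2 in AKO samples (log2 fold change −0.039 with PC1, SE 0.196, adjusted p = 0.966, and −0.60 without). In total 5 of the 33 lay lower without overlap and 1 lay higher, against 8.84% and 8.77% of all BAT peaks, and 20 had a log2 fold change below 0 without the covariate but 14 with it. None was called by limma, DESeq2, edgeR or limma-trend.

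Of the 17 iWAT peaks inside Prdm16, assigned to 5930403L14Rik (12) and Arhgef16 (5), none lay lower and 5 lay higher without overlap, against 10.3% and 10.6% of all iWAT peaks, and 6 were below 0. The intronic peak chr4:154603589-154603844, shown above, had 29.2, 35.6 and 42.2 in flox and 80.7, 63.9 and 69.5 in AKO samples. The AKO samples were all above the flox samples, by a log2 fold change of 0.99 (SE 0.176, adjusted p = 0.149). limma did not call it, while DESeq2 (adjusted p = 0.0514), edgeR (0.0132) and limma-trend (0.0252) did. The start site peak, chr4:154635481-154637102, had 280.1, 213 and 263 in flox and 220.2, 284 and 216 in AKO samples with overlapping groups (log2 fold change −0.073, SE 0.174, adjusted p = 0.878). The tables of the tissues were normalized separately, and the difference between tissues was not tested.

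Mecom had 16 BAT and 9 iWAT peaks, nearly all in introns of the long gene. Its BAT peak nearest a start site, chr3:30012126-30013424, lay at an internal start, 496958 bp downstream of the main one. It had 479, 406 and 450.2 in flox and 394, 294 and 412 in AKO samples (log2 fold change −0.073 with PC1, SE 0.201, adjusted p = 0.934, and −0.29 without), and the groups overlapped. The peak next to the main start site, chr3:30507691-30509416, also overlapped (log2 fold change −0.036 with PC1, SE 0.23, adjusted p = 0.975, and 0.037 without). The intronic peak with the smallest p, chr3:30019335-30019809, lay upstream of the internal start and had 274, 254 and 359.6 in flox and 183, 187 and 225 in AKO samples. All AKO samples were below all flox samples there, with a log2 fold change of −0.66 with PC1 (SE 0.239, adjusted p = 0.521) and −0.56 without. Another intronic peak, chr3:30088611-30088898, was also lower without overlap, at 78.4, 70.2 and 68.6 in flox and 47.4, 50.2 and 54.7 in AKO samples. Of the 16 Mecom peaks in BAT, 10 were below 0 with PC1 and 12 without it, where 49.1% and 51.7% of all BAT peaks were. Without overlap 2 lay lower and 2 higher, against 8.84% and 8.77% of all BAT peaks.

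In iWAT the Mecom start site peak, chr3:30012229-30013267, had 66.3, 83.4 and 55.9 in flox and 70.3, 70.8 and 85.5 in AKO samples (log2 fold change 0.15, SE 0.182, adjusted p = 0.738). The peak with the smallest p, chr3:30515127-30515388, had 22.1, 27.8 and 29.3 in flox and 42.6, 44.5 and 31.0 in AKO samples. It was higher in every AKO sample, with a log2 fold change of 0.55 (SE 0.188, adjusted p = 0.245). The BAT peak that overlaps it had a log2 fold change of −0.13 with PC1 and −0.12 without.

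Zfp516, whose product binds promoters of thermogenic genes, had 2 peaks in each tissue. The start site peak of BAT, chr18:82913063-82914696, had 550.2, 522 and 561 in flox and 447, 452 and 547 in AKO samples, and its groups overlapped by 1 sample (log2 fold change −0.15 with PC1, SE 0.195, adjusted p = 0.843, and −0.18 without). The upstream peak, chr18:82902496-82902891, had 100.8, 96.8 and 99.6 in flox and 116, 63.7 and 97.9 in AKO samples (log2 fold change 0.19 with PC1, SE 0.241, adjusted p = 0.837, and −0.14 without). Neither differed beyond the spread between mice. In iWAT the start site peak, chr18:82913109-82914745, had 345, 361 and 363 in flox and 352, 315 and 331 in AKO samples (log2 fold change −0.10, SE 0.124, adjusted p = 0.744). Peaks inside Zfp516 were mostly assigned to 4930592I03Rik, 3 in BAT and 4 in iWAT. Of those 4, 2 lay lower and 1 higher without overlap, against 10.3% and 10.6% of all iWAT peaks.

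Zfp423, which encodes a zinc finger factor of white adipocyte identity, had the most peaks of any member, 30 in BAT and 23 in iWAT. In BAT 4 of the 30 lay higher and 0 lower without overlap, against 8.77% and 8.84% of all peaks. The peak at an internal start site that is nearest by the deposited distances, chr8:87804424-87805032, had 170.3, 163 and 163 in flox and 192, 178 and 254 in AKO samples. The flox samples were tightly grouped and the AKO samples all above them, with a log2 fold change of 0.45 with PC1 (SE 0.217, adjusted p = 0.594) and 0.31 without. A peak at another internal start site, chr8:87895681-87896164, which is nearer by the GENCODE start sites, had 109, 103 and 90.5 in flox and 106, 119.7 and 103 in AKO samples and overlapped (log2 fold change 0.13 with PC1, SE 0.197, adjusted p = 0.867, and 0.12 without). The peak with the smallest p, chr8:87918117-87918791, had 152, 149 and 119 in flox and 180.4, 182 and 184 in AKO samples, and it separated the genotypes too (log2 fold change 0.50 with PC1, SE 0.191, adjusted p = 0.528, and 0.38 without). The peak over the main start site, chr8:87958077-87962355, showed overlapping groups, with 2779, 2524 and 2303 in flox and 2465, 1819 and 2454 in AKO samples (log2 fold change 0.092 with PC1, SE 0.174, adjusted p = 0.896, and −0.18 without). Of the 30 peaks, 12 were below 0 with PC1 and 12 without, where 49.1% and 51.7% of all BAT peaks were.

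In iWAT, Zfp423 had 2 of its 23 peaks lower and 3 higher without overlap, against 10.3% and 10.6% of all iWAT peaks. The peak nearest a start site, chr8:87895519-87895836, was small, with 25.7, 23.3 and 33.6 in flox and 51.9, 41.1 and 23.5 in AKO samples, and overlapped (log2 fold change 0.43, SE 0.291, adjusted p = 0.532). The smallest p belonged to an exonic peak of few reads, chr8:87783408-87783491, with 8.55, 7.78 and 10.3 in flox and 21.9, 12.6 and 16.0 in AKO samples (log2 fold change 0.83, SE 0.215, adjusted p = 0.182). A deeper intronic peak, chr8:87737938-87738354, had 127, 135 and 139 in flox and 175, 195 and 169 in AKO samples. It was higher in every AKO sample, with a log2 fold change of 0.42 (SE 0.13, adjusted p = 0.214), and was called by edgeR (adjusted p = 0.0847) and limma-trend (0.0967) but not by DESeq2 (0.201). An intronic peak near an internal start, chr8:87893676-87893938, was instead lower, with 51.3, 76.7 and 54.2 in flox and 33.4, 44.5 and 27.8 in AKO samples (log2 fold change −0.77, SE 0.226, adjusted p = 0.203), and only edgeR called it (adjusted p = 0.0894).

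Zbtb16, a zinc finger gene induced by cold, had several intronic peaks with separated groups in BAT. Of its 14 peaks, 4 lay lower and 0 higher without overlap, against 8.84% and 8.77% of all BAT peaks. With PC1 9 were below 0 and without it 12, where 49.1% and 51.7% of all peaks were. Flox replicate 1, the deepest sample, had the highest value at 10 of the 14, where it is the highest at 25.4% of all BAT peaks. The start site peak, chr9:48835624-48836656, had 809, 689 and 555 in flox and 605, 440.4 and 728 in AKO samples and overlapping groups (log2 fold change 0.20 with PC1, SE 0.196, adjusted p = 0.788, and −0.22 without). The intronic peak with the smallest p, chr9:48751980-48752484, had 193, 178 and 198 in flox and 110.3, 92.7 and 155 in AKO samples. All AKO samples were below all flox samples, with a log2 fold change of −0.52 with PC1 (SE 0.259, adjusted p = 0.602) and −0.69 without. The largest intronic peak, chr9:48744912-48746792, shown above, had 958, 750.0 and 821 in flox and 565, 502 and 708 in AKO samples (log2 fold change −0.32 with PC1, SE 0.216, adjusted p = 0.698, and −0.52 without) and was also separated. Another, chr9:48729531-48730874, had 752, 667 and 609 in flox and 524, 433 and 535 in AKO samples (log2 fold change −0.22 with PC1, SE 0.17, adjusted p = 0.731, and −0.44 without). These peaks lie close together in introns and are not replicates of each other.

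Further 3′ in Zbtb16, 5 BAT peaks were assigned to Nnmt, the next gene. One of them, chr9:48707189-48708275, had 499.5, 401 and 362 in flox and 229, 214 and 253 in AKO samples. Every AKO sample was lower, with a log2 fold change of −0.62 with PC1 (SE 0.189, adjusted p = 0.48) and −0.85 without, although limma, DESeq2 and edgeR did not call it (adjusted p = 0.269 with DESeq2 and 0.265 with edgeR). Over all 17 peaks inside the gene, 5 lay lower and 0 higher without overlap, against 8.84% and 8.77% of all BAT peaks. Without PC1 14 of the 17 were below 0 and with it 11, where 51.7% and 49.1% of all BAT peaks were.

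Within iWAT, the Zbtb16 start site peak, chr9:48835675-48836637, had 472, 448 and 422 in flox and 483, 428 and 485 in AKO samples (log2 fold change 0.057, SE 0.13, adjusted p = 0.873). The peak with the smallest p, chr9:48822360-48822568, was higher in every AKO sample, with 52.7, 56.7 and 48.2 in flox and 70.3, 60.5 and 80.2 in AKO samples (log2 fold change 0.41, SE 0.153, adjusted p = 0.28). The large intronic peak, chr9:48744928-48746693, was lower in every AKO sample as in BAT, with 371, 286 and 399 in flox and 260.5, 279 and 266 in AKO samples. Its log2 fold change was −0.38 (SE 0.16, adjusted p = 0.332), and it was called by edgeR (adjusted p = 0.0287) and limma-trend (0.061) but not by limma or DESeq2 (0.134). Of the other 12 Zbtb16 peaks of iWAT, 7 were below 0.

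**Figure D2:**
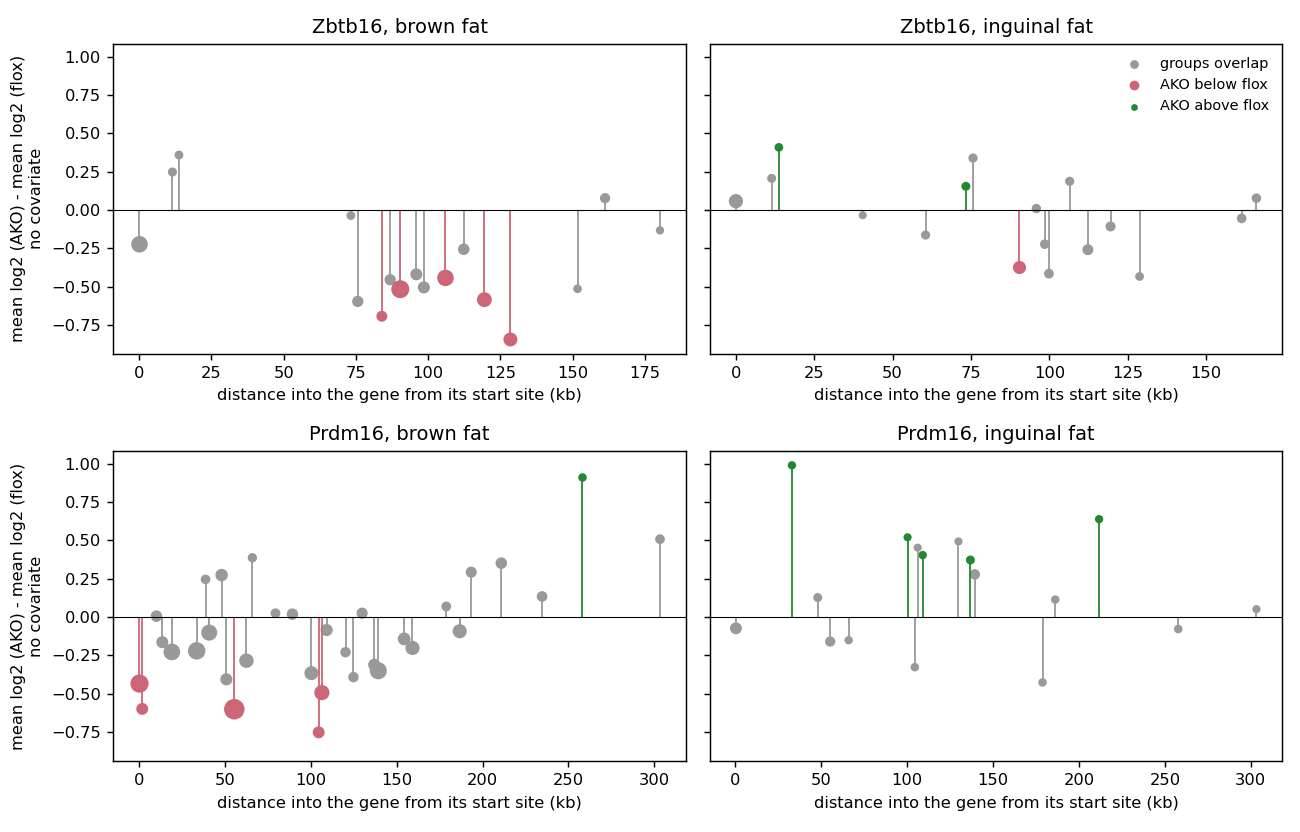
Difference of mean log2(normalized reads + 1), AKO minus flox, with no covariate (vertical axis), for every peak inside Zbtb16 (top) and Prdm16 (bottom) in BAT (left) and iWAT (right), against the distance of its midpoint from the main start site in kb. Circles grow with the flox mean and red and green mark groups without overlap, which lie below 0 in BAT at 5 of 17 Zbtb16 and 5 of 33 Prdm16 peaks, and above 0 at 1 Prdm16 peak. In iWAT they lie above 0 at 5 of 17 Prdm16 peaks, and at Zbtb16 1 lies below and 2 above. Over all peaks, 8.84% lay lower and 8.77% higher without overlap in BAT, and 10.3% and 10.6% in iWAT.

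Irf4 encodes an interferon regulatory factor that works with the coactivator PGC-1α in fat and is also abundant in lymphocytes. In BAT 1 mouse stood apart at its 16 peaks. Flox replicate 1 had the highest value at 14 of the 16, where it is the highest at 25.4% of all BAT peaks. It was the highest at 41 of the 111 member peaks in all, among them 10 of the 14 of Zbtb16 and the 2 of Prdm16. The start site peak, chr13:30748870-30750208, had 1124, 504 and 609 in flox and 689.7, 558 and 572 in AKO samples (log2 fold change 0.17 with PC1, SE 0.332, adjusted p = 0.902, and −0.22 without). The peak with the smallest p, chr13:30745076-30745436, had 308, 115 and 94.4 in flox and 189.7, 106 and 122 in AKO samples (log2 fold change 0.67 with PC1, SE 0.378, adjusted p = 0.641, and −0.15 without). Flox replicate 1 was the highest at both, and no Irf4 peak of BAT had separated groups. The summed peaks of the immune markers that had any in BAT were 229 normalized reads in that mouse and between 221 and 301 in the others. This sum rests on 2 peaks, with none for Cd3e, Cd68, Cd79a or Ptprc. The part of immune cells in the Irf4 values of BAT was not tested.

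In iWAT, Irf4 held the member peak with the smallest p. This upstream peak, chr13:30721514-30721722, had 29.9, 27.8 and 17.2 in flox and 45.0, 54.8 and 52.4 in AKO samples. The AKO samples were all above the flox samples, with a log2 fold change of 1.03 (SE 0.221, adjusted p = 0.151). It was not called by limma or DESeq2 (adjusted p = 0.119), and was called by edgeR (0.0402) and limma-trend (0.052). An upstream peak closer to the gene, chr13:30738328-30738658, had 48.5, 62.3 and 50.8 in flox and 35.7, 37.7 and 39.6 in AKO samples and lay lower in every AKO sample (log2 fold change −0.50, SE 0.146, adjusted p = 0.203). The start site peak, chr13:30748986-30750120, had 227, 200.1 and 242 in flox and 196, 201 and 223 in AKO samples (log2 fold change −0.11, SE 0.138, adjusted p = 0.76). The summed immune markers, given above, lay lower in AKO aliquots, and their part in these values was not tested. Thus, of the 13 Irf4 peaks, 2 lay higher and 2 lower without overlap, against 10.6% and 10.3% of all iWAT peaks. The groups of the start site peak overlapped.

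Ehmt1, the methyltransferase that stabilizes PRDM16, had 4 BAT peaks and 1 iWAT peak. Its start site peak of BAT, chr2:24918958-24920062, had 707, 688 and 572 in flox and 593, 404 and 665 in AKO samples (log2 fold change 0.097 with PC1, SE 0.201, adjusted p = 0.905, and −0.27 without). The intronic peak with the smallest p, chr2:24866231-24866499, had 42.8, 62.8 and 36.2 in flox and 48.5, 50.2 and 65.2 in AKO samples (log2 fold change 0.36 with PC1, SE 0.305, adjusted p = 0.754, and 0.23 without). Both overlapped. In iWAT, the start site peak, chr2:24919065-24919841, had 308, 308 and 265 in flox and 329.7, 288 and 312 in AKO samples and overlapped as well (log2 fold change 0.078, SE 0.136, adjusted p = 0.824).

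The corepressors CtBP1 and CtBP2, which bind PRDM16 through short peptide motifs, had accessible start sites in both tissues. The Ctbp1 start site peak of BAT, chr5:33273949-33275450, had 862, 828 and 674 in flox and 773, 659 and 933 in AKO samples (log2 fold change 0.26 with PC1, SE 0.196, adjusted p = 0.727, and −0.0057 without). That of iWAT, chr5:33274121-33275449, had 479.7, 459 and 472 in flox and 489.9, 500.1 and 553 in AKO samples. The 3 AKO aliquots were all above the flox aliquots, with a log2 fold change of 0.13 (SE 0.125, adjusted p = 0.674). The Ctbp2 start site peak of BAT, chr7:133121475-133124527, had 852, 818 and 708 in flox and 787, 784 and 965 in AKO samples (log2 fold change 0.23 with PC1, SE 0.195, adjusted p = 0.751, and 0.091 without) and overlapped.

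Ctbp2 followed the same order in iWAT, where its start site peak, chr7:133123032-133124482, had 305, 325 and 311 in flox and 367, 368 and 342 in AKO samples. The AKO aliquots were again all higher, with a log2 fold change of 0.19 (SE 0.122, adjusted p = 0.499). Neither start site peak of iWAT was called by any of the 4 tests. The intronic Ctbp2 peak with the smallest p was chr7:133108904-133109624 in BAT, with 219, 174 and 158 in flox and 312, 191 and 198 in AKO samples (log2 fold change 0.67 with PC1, SE 0.244, adjusted p = 0.522, and 0.32 without), and the groups overlapped. In iWAT it was chr7:133098437-133098758, with 68.4, 63.4 and 38.7 in flox and 69.2, 83.3 and 90.9 in AKO samples (log2 fold change 0.54, SE 0.235, adjusted p = 0.341), where they did not.

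Nrip1 encodes a nuclear receptor corepressor that holds Ucp1 and oxidative genes down, and its start site peak in iWAT was called by 3 of the 4 tests. This peak, chr16:76372292-76373890, had 605, 551 and 541 in flox and 419.6, 444 and 474 in AKO samples. Every AKO aliquot was lower, with a log2 fold change of −0.34 (SE 0.129, adjusted p = 0.279). limma did not call it, and DESeq2 (adjusted p = 0.06), edgeR (0.0199) and limma-trend (0.0305) did. It was the only peak of the 88 that DESeq2 called. The peak with the smallest p, chr16:76525027-76525716, lies far upstream and had 59.2, 51.1 and 86.1 in flox and 42.6, 33.1 and 44.9 in AKO samples, again lower in every AKO aliquot (log2 fold change −0.67, SE 0.223, adjusted p = 0.237). In all, 4 of the 15 Nrip1 peaks lay lower and 1 higher without overlap, against 10.3% and 10.6% of all iWAT peaks, and 9 were below 0.

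In BAT the Nrip1 start site peak, chr16:76372216-76373890, had 1377, 1029 and 893 in flox and 1013, 827 and 1030.4 in AKO samples (log2 fold change 0.16 with PC1, SE 0.186, adjusted p = 0.825, and −0.18 without), and its groups overlapped. The smallest p of all member peaks in BAT was that of chr16:76467475-76467816, which had 65.3, 88.7 and 107 in flox and 63.9, 122 and 71.0 in AKO samples. These groups overlap, and the log2 fold change of −0.66 with PC1 (SE 0.176, adjusted p = 0.449) and −0.056 without rests on the covariate. Far upstream, chr16:76507187-76507778 had 183, 182 and 221 in flox and 139, 119.7 and 161 in AKO samples and separated the genotypes (log2 fold change −0.45 with PC1, SE 0.227, adjusted p = 0.607, and −0.48 without).

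**Figure D3:**
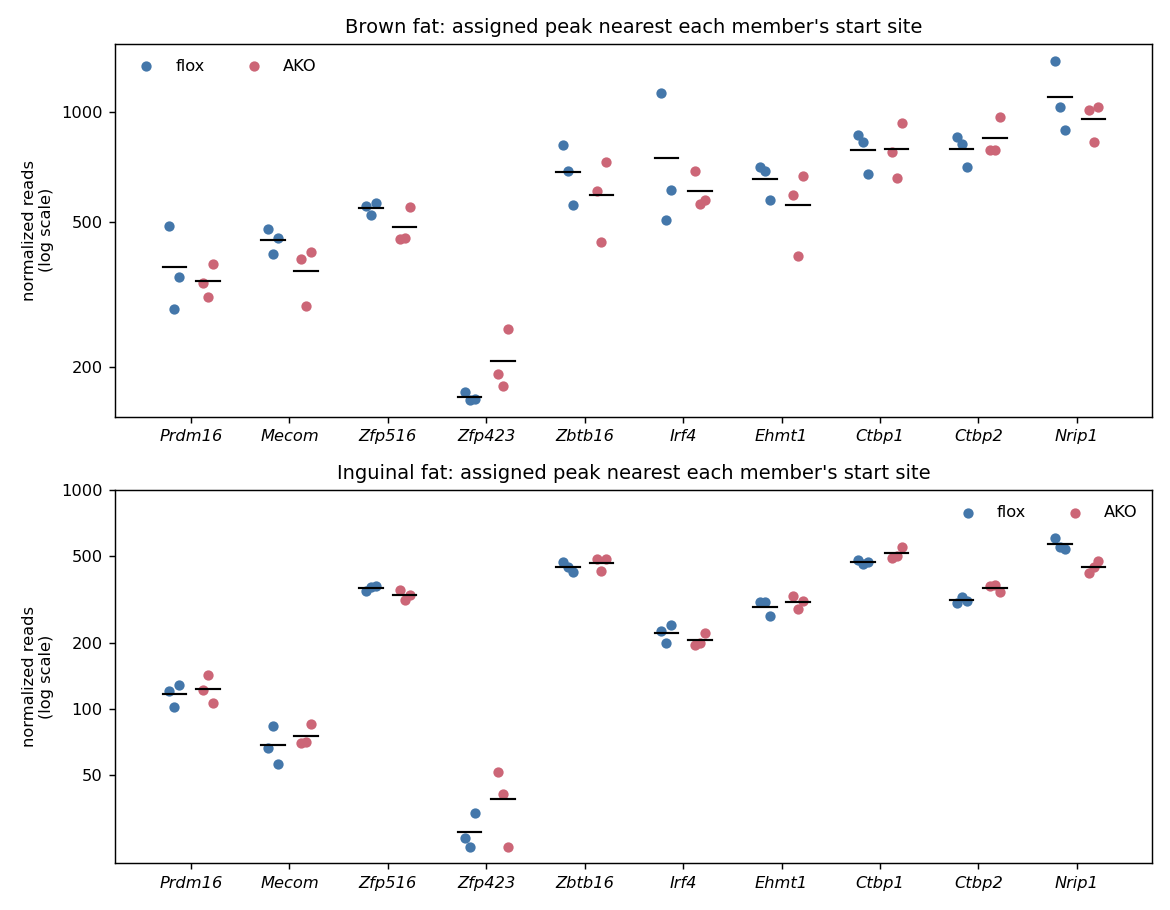
Normalized reads (log scale) in each sample at the assigned peak nearest each member's start site, by the deposited distances in BAT (top) and by GENCODE start sites in iWAT (bottom). Points are the 3 flox and 3 AKO samples and black lines their means. The genotypes do not overlap at Zfp423 in BAT and at Ctbp1, Ctbp2 and Nrip1 in iWAT. Over all peaks, 8.84% lay lower and 8.77% higher without overlap in BAT, and 10.3% and 10.6% in iWAT. The Prdm16 peaks shown lie upstream of its start site. The peak over that start site was assigned to another gene, and in BAT it lay lower without overlap. Peaks differ in length, so levels are to be compared within a gene and tissue only.

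Most member peaks were found in both tissues. Of the 111 BAT peaks, 69 (62.2%) overlapped an iWAT peak of the same member by at least 1 bp, and of the 88 iWAT peaks 71 (80.7%) overlapped one of BAT. The same shares over all peaks were not counted here. The paper reports that most iWAT peaks overlap BAT peaks, so sharing is not a trait of the members alone. In 2 pairs every AKO sample lay below every flox sample in both tissues, and no pair lay higher in both or went in opposite directions without overlap. These are 2 of 71 overlapping pairs of the members. Over all 31593 overlapping pairs of peaks with the same symbol, 1.06% lay lower and 1.21% higher in both tissues without overlap, and 2 pairs are too few to set the members apart. The first of the 2 member pairs was the large Zbtb16 intron peak given above. The other was the upstream Nrip1 peak, which in iWAT, at chr16:76507273-76507867, had 62.0, 51.1 and 70.6 in flox and 45.0, 48.0 and 36.4 in AKO samples (log2 fold change −0.49, SE 0.176, adjusted p = 0.26).

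**Figure D4:**
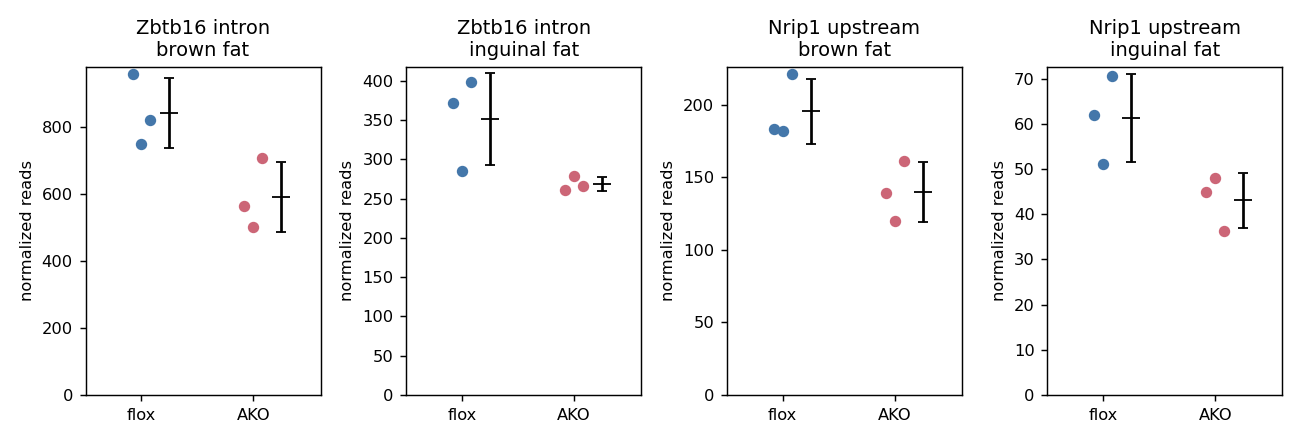
Normalized reads in each sample (points) with the mean ± SD of 3 samples per genotype (black) at the 2 member peaks that were lower without overlap in AKO samples of both tissues, the Zbtb16 intron peak and the upstream Nrip1 peak. In BAT the Zbtb16 peak had 750.0 or more normalized reads in flox and 708 or less in AKO samples.

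Summing the peaks of a gene gave 1 value per gene and sample, tested by limma over 17116 genes in BAT and 15963 in iWAT. In BAT the test called 0.00584% of genes, no member among them, and at an unadjusted p under 0.05 there was no member either. The groups of no member were separated, where 8.43% of genes lay lower and 8.97% higher without overlap. The largest difference without PC1 was that of Zbtb16, with 4532, 3703 and 3618 in flox and 2949, 2546 and 3671 in AKO samples. Its log2 fold change was −0.38 without PC1 and −0.13 with it (adjusted p = 0.788), so it depended on the covariate.

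In iWAT the sums were called for 0% of genes. Those of Nrip1 were lower in every AKO aliquot, with 1463, 1326 and 1408 in flox and 1175, 1259 and 1160.2 in AKO samples (log2 fold change −0.22, SE 0.0843, adjusted p = 0.295). Ctbp1, Ctbp2 and Zfp423 were higher in every AKO aliquot, by 0.13, 0.12 and 0.12. Ctbp2 had 798, 801 and 791 in flox and 862, 881 and 848 in AKO samples, a difference larger than the spread between aliquots that limma did not call. Over all genes 10.8% lay lower and 10.6% higher without overlap. The other 6 members overlapped, with log2 fold changes from −0.066 in Zbtb16 to 0.079 in Prdm16.

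Other genes of the pathway, from lists chosen with earlier results of these data known, were described in the same way. The factors that PRDM16 partners with or that bind beside it (Pparg, Ppara, Cebpa, Cebpb, Ebf1, Ebf2 and Nfia, with no peak for Zbtb7b) had 136 peaks. Of these, 114 were below 0 with PC1 and 105 without, and 45 lay lower and 2 higher without overlap, against 8.84% and 8.77% of all BAT peaks. DESeq2 called 1 of them lower, against 0.298% of all, and limma called none. The smallest p was at Nfia, which primes brown fat enhancers, on chr4:97818537-97818798, with 98.2, 113 and 102 normalized reads in flox and 46.4, 59.9 and 63.3 in AKO mice (log2 fold change −0.98 with PC1, SE 0.217, adjusted p = 0.436, and −0.88 without). The thermogenic targets had 52 BAT peaks, of which 44 were below 0 with PC1 and 48 without, and 25 lay lower and 0 higher without overlap, against the same 8.84% and 8.77%. DESeq2 called 6 of them lower and edgeR 5, against 0.298% and 0.114% of all peaks. Their smallest p was at a Ucp1 peak, chr8:83298730-83300383, with 1629, 1143 and 952 in flox and 312, 332 and 227 in AKO mice (log2 fold change −1.93 with PC1, SE 0.318, adjusted p = 0.417, and −2.07 without).

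The coregulators and chromatin enzymes, such as Ppargc1a, Med1, Hdac3 and Kdm1a, had 104 BAT peaks with 75 below 0 with PC1 and 70 without, and 19 lay lower and 7 higher without overlap. Over all BAT peaks these shares were 8.84% and 8.77%. The smallest p was at Ppargc1a, the gene of PGC-1α, on chr5:51501314-51501585, with 50.2, 73.9 and 62.1 in flox and 27.8, 67.6 and 28.8 in AKO mice. The groups overlap, and the log2 fold change was −1.30 with PC1 (SE 0.302, adjusted p = 0.436) and −0.68 without. White fat genes had 26 peaks with 13 below 0 with PC1 and 14 without, and their smallest p, at Nnmt (log2 fold change −0.98 with PC1, adjusted p = 0.444, and −0.51 without), belongs to a peak inside Zbtb16 whose groups overlap. The medians of the log2 fold changes with PC1 were −0.28 for the partners, −0.18 for the coregulators, −0.33 for the thermogenic targets and 0.017 for the white fat genes, against 0.0067 for all BAT peaks. Without PC1 they were −0.28, −0.16, −0.44 and −0.016, against −0.014 for all BAT peaks. The summed peaks of the brown adipocyte markers, which share Ucp1, Cidea, Dio2 and Cox8b with the targets, were 10086 to 12140 in AKO and 15507 to 20555 in flox samples, and their part in these counts was not tested.

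In iWAT, the thermogenic targets had 9 of 27 peaks below 0, and 3 lay lower and 6 higher without overlap, against 10.3% and 10.6% of all iWAT peaks. edgeR and limma-trend each called 3 of them higher and DESeq2 none, against 2.15%, 1.64% and 0.546% of all. The summed peaks of the brown adipocyte markers were 1072 to 1171 in flox and 1202 to 1397 in AKO aliquots, without overlap, and their part in these counts was not tested. The smallest p of the targets was at Cidea (log2 fold change 0.54, SE 0.159, adjusted p = 0.205). The partner factors had 36 of 60 below 0, with 8 lower and 7 higher without overlap, and the smallest p at Ebf1 (log2 fold change 0.99, adjusted p = 0.152). Of the partner factor peaks DESeq2 called 1 higher, edgeR 2 lower and 3 higher, and limma-trend 2 and 2. The coregulators had 20 of 45 below 0, with 4 lower and 10 higher, and the smallest p at Ppargc1b (log2 fold change 0.75, adjusted p = 0.151). edgeR called 1 of them lower and 2 higher, limma-trend 1 and 1, and DESeq2 none. White fat genes had 13 of 22 below 0 and the smallest p at Agt (log2 fold change 0.48, adjusted p = 0.222). No white fat peak was called by any of the 4 tests, and limma called no peak of these lists in iWAT.

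Motif content was set beside that of all peaks. The EBF consensus was found in 35.1% of the 111 BAT peaks and 32% of all BAT peaks, and in 27.3% of the 88 iWAT peaks and 29.7% of all. The C/EBP consensus was in 26.1% and 25.5% in BAT and in 25% and 21.4% in iWAT. A direct repeat of AGGTCA spaced by any base, the form bound by PPARγ with its partner RXR, was present with up to 2 mismatches in 12.6% against 11.9% in BAT and 11.4% against 8.74% in iWAT. With up to 1 mismatch the shares were 4.50% against 1.87% in BAT and 2.27% against 1.31% in iWAT, which rest on 5 and 2 member peaks. The NF1 palindrome (TTGGC, 5 bases, GCCAA, up to 1 mismatch) was in 0 of the 111 and 0 of the 88 peaks, against 3.38% and 2.39% of all. Median peak width was 483 bp for members and 482 bp for all peaks of BAT, and 376 bp and 432 bp in iWAT. These matches describe letters in a window and no binding.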

How the data were processed

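Nuclei of brown fat (3 mice per genotype) and of inguinal fat (3 aliquots of a pool per genotype) were profiled by ATAC-seq. Per the labels and the study's methods, the authors aligned reads to mm10 with BWA 0.7.17-r1188, marked duplicates with Picard 2.8.14, called broad peaks with MACS2 2.1.1.20160309 and counted reads per peak with bedtools 2.27.1, keeping peaks found in at least 2 of 3 replicates. The deposited values are a signal, reads divided by a size factor of the sample, and 100% of them were whole reads once multiplied back (tolerance 0.001). Deposited fold changes and p-values were not used. Starts were counted from 0 in the files and are given from 1.

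All peaks of a table were fitted with limma 3.58.1 (R 4.3.3) on log2(normalized reads + 1), adding principal component 1 (PC1) as covariate for brown fat, after the study's methods, and none for inguinal fat, where PC1 separates the genotypes. P-values were adjusted by Benjamini-Hochberg, threshold 0.1, and are two-sided. DESeq2 1.42.0 and edgeR 4.0.16 quasi-likelihood on the recovered reads, and limma-trend on the same log2 values as limma, were alternatives. The fits of limma, DESeq2 and edgeR were tested on simulated data, and limma-trend was not. In inguinal fat p-values measure only technical spread. Locations are from GENCODE vM21 and sequences from GRCm38.p6. Values are given for the assigned peak nearest each start site (by the deposited distances in brown fat, by GENCODE start sites in inguinal fat) and the peak of smallest p per gene, and list genes are named where a peak had the smallest p of its list. The members and lists were chosen with earlier results of these data known. Same-numbered samples correlated at 0.494, 0.0632 and −0.236 in brown and at −0.0387, −0.0497 and −0.0566 in inguinal fat, so numbers were not treated as pairs. Depth limits weak peaks most, since values near 10 normalized reads rest on few reads.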

Additional observations from a re-analysis of the deposited data

How the results depend on the processing

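Of the results for single peaks and genes, 614 values under an alternative kept their direction and side of the threshold, 50 turned direction and 5 newly passed it, and of the counts 185 stayed within 1.5 times and 41 did not. The cause was not tested. Without the PC1 covariate the brown fat peaks of Prdm16 (−0.097 and −0.22), Zfp516 (−0.14), Zbtb16 (−0.22), Irf4 (−0.15 and −0.22), Ehmt1 (−0.27), Ctbp1 (−0.0057) and Nrip1 (−0.18) turned below 0 on the log2 scale. So did the sums of Prdm16 (−0.17), Zfp423 (−0.045), Irf4 (−0.10), Ehmt1 (−0.12) and Nrip1 (−0.11), leaving 8 of 10 sums below 0. With a replicate block, brown fat gave −0.033 for the nearest Prdm16 peak, −0.27 for the Irf4 start site peak, −0.081 for the Irf4 sum and −0.059 for the Nrip1 sum, with 5 sums below 0. The replicate block in inguinal fat left 5 peaks lower and 5 higher at an unadjusted p under 0.05 and 0 sums. Averaging log2 values in place of summing gave 0.021 for Zfp516 and −0.13 for Nrip1 in brown fat, and 0.011 for Mecom, 0.0082 for Zfp516 and 0.029 for Irf4 in inguinal fat, with 2 inguinal sums below 0 and 0 at p under 0.05. PC1 as a covariate in inguinal fat, where it cannot be told apart from genotype, gave −0.77 for the Prdm16 peak and sum, −2.59 for Mecom, −3.61 for Zfp423, 0.56 for Irf4, −0.37 for Ctbp2 and 0.75 for Nrip1. It gave sums of −0.44 for Zfp423, 0.45 for Zbtb16 and 0.063 for Irf4, with 2 peaks lower, 0 higher and 0 sums at p under 0.05. At that p, DESeq2 had 2 brown fat peaks lower and 1 higher and 5 inguinal peaks higher, and edgeR and limma-trend each had 2 brown fat peaks lower. In inguinal fat limma called 0, DESeq2 called 1 lower, edgeR 3 lower and 2 higher, and limma-trend 2 and 2. Over gene spans, chosen after seeing the data, 5 inguinal peaks were lower and 11 higher at p under 0.05. With 1 mismatch fewer the direct repeat was in 5 brown and 2 inguinal peaks.

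Leaving out each replicate in turn moved the counts at an unadjusted p under 0.05 between 1 and 7 lower and 2 and 5 higher in brown fat, and between 3 and 10 lower and 4 and 8 higher in inguinal fat. Sums below 0 in brown fat ranged from 1 to 4, and inguinal sums at that p from 0 to 1. In brown fat the log2 fold changes ranged from −0.022 to 0.60 and −0.045 to 0.19 for the Ehmt1 peaks and −0.087 to 0.33 for the Irf4 start site peak. They ranged from −0.16 to 0.19 for the Mecom peak at an internal start site, −0.041 to 0.30 for the nearest Prdm16 peak and −0.032 to 0.55 for the upstream Zfp516 peak. The brown fat sums ranged from −0.16 to 0.027 for Mecom, −0.025 to 0.053 for Nrip1, −0.29 to 0.051 for Zbtb16, −0.0030 to 0.10 for Zfp423 and −0.21 to 0.054 for Zfp516. In inguinal fat they ranged from −0.027 to 0.18 for the Prdm16 peak and sum, −0.074 to 0.0035 for the Irf4 sum and −0.057 to 0.061 for the Mecom sum.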
